A study of Mus musculus with 2 samples.

Results

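Keratin-high non-dividing cancer cells were cells of tumors of RM-1, a mouse prostate cancer (PCa) line, that carried the largest share of Krt8, Krt18 and Krt19 transcripts among cancer cells outside the dividing pool. The study placed RM-1 cells in the prostate of C57BL/6 mice, treated 1 mouse with vehicle (control) and 1 with enzalutamide (ENZ), an antiandrogen drug for PCa, and profiled 1 tumor library of each by droplet-based scRNA-seq. The labels give both the genotype WT and no age. The study describes RM-1 as intrinsically resistant to ENZ, so that the control cells are those of a resistant line as well, and immune cells were enriched while the cells were prepared, so that shares of all barcodes also depend on that step. The control library held 170830346 unique molecular identifiers (UMIs, each marking 1 captured transcript) over 13854 barcodes with at least 500 UMIs, and the ENZ library held 162030149 UMIs over 11366 such barcodes.

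Members were chosen from these counts. A barcode entered the gate with at least 8000 UMIs, at most 20% mitochondrial UMIs, at most 1 UMI of the leukocyte gene Ptprc, at least 5 UMIs of Cacna2d1, Rbfox2, Kif21a and Rhox5 together, which marked the cancer cells here, fewer than 10 UMIs of the fibroblast genes Dcn, Lum and Dpt, and fewer than 10 UMIs of the mitotic genes Top2a, Mki67, Cenpf and Ube2c. Of 5433 control and 5164 ENZ barcodes with at least 8000 UMIs, 2503 and 3008 passed. Within each library, the third of the gated cells with the highest share of Krt8, Krt18 and Krt19 among its UMIs was called keratin-high. This gave 834 control and 1002 ENZ cells, 1836 of the 5511 gated cells and of 10597 barcodes with at least 8000 UMIs, and left 1669 and 2006 cells as the rest of the gate. The keratin-high cells were 15.4% of the control barcodes with at least 8000 UMIs (95% Clopper-Pearson interval 14.4% to 16.3%) and 19.4% of the ENZ barcodes (18.3% to 20.5%). Because the rule fixes their share of each gate, these shares follow the size of the gates and do not show how common a high keratin level was. The libraries shared 5 barcode sequences in the gate and 1 among keratin-high cells. Because the keratin counts chose the cells, every difference between keratin-high cells and the rest is given as a description without a test. With 1 mouse per condition no comparison between the libraries had a test either, and each interval covers counting error only.

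Keratins 8, 18 and 19 are intermediate filament proteins of simple epithelia. A type II keratin such as keratin 8 pairs with a type I keratin such as keratin 18 or keratin 19, and the filaments tie to desmosomes and hemidesmosomes and protect the cell from mechanical stress. In the prostate they are known from the luminal layer, whereas keratins 5 and 14 mark basal cells, and carcinoma cells often keep them together with the mesenchymal filament vimentin.

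In GENCODE M21 on GRCm38, Krt8 lay on chromosome 15 from 101996698 to 102004482 on the minus strand, and Krt18 lay nearby from 102028180 to 102032027 on the plus strand. Krt19 was on chromosome 11 from 100140810 to 100148665 on the minus strand. The sequences before the starts of Krt8 and Krt18 are shown because this neighbouring pair of genes held most of the keratin UMIs by which the members were chosen. They come from RefSeq on GRCm38.p6, where the genes start 140 bases (Krt8, at 102004342) and 36 bases (Krt18, at 102028216) further inside than in GENCODE. The stretches run from 250 bases before the RefSeq start to the last base before the GENCODE start, Krt8 at chr15:102004483-102004592 on the minus strand and Krt18 at chr15:102027966-102028179 on the plus strand. Capitals mark a match to the motifs that were searched, of which the Krt8 stretch holds none.
Krt8: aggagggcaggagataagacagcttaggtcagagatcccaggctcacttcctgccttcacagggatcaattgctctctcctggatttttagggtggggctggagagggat
Krt18: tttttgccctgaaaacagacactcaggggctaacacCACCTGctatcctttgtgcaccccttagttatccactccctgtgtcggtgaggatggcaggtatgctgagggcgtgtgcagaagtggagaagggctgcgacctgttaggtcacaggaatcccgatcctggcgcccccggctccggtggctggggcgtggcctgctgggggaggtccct
Windows of 300 bases, the 250 before and the 50 after the RefSeq start, were searched on both strands for 5 motifs. They were the AP-1 site, spelled TGANTCA, the E-box of Snail-type repressors, spelled CAGGTG, the GC box of Sp proteins, spelled GGGCGG, the TATA box of the basal machinery, spelled TATAAA, and the site of TEAD proteins, spelled GGAATG. Each gene held 1 E-box, read from the other strand as CACCTG, from 111 to 106 bases before the RefSeq start in Krt8 and from 214 to 209 bases before it in Krt18. The Krt8 match, at 102004448 to 102004453, thus lay within the gene as GENCODE draws it, and the Krt18 match, at 102028002 to 102028007, before both starts. Of RefSeq promoters of this length, 20.2% of 32851 held this motif. Krt8 also held 2 TATA boxes on opposite strands that overlapped each other at the RefSeq start and so within the GENCODE gene, a motif held by 13.6% of promoters. The letters of the AP-1 site (7.81% of promoters), the GC box (35.7%) and the TEAD site (14.7%) were in neither window. The RefSeq tables used here had no promoter for Krt19.

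The keratin share was graded, without a gap at the limit. It is given as CPM, the UMIs of a gene scaled to a fixed total of UMIs per cell or per set of cells. The last control cell inside had 772.8 CPM and the first outside 772.2 CPM, the last ENZ cell inside had 1033.8 CPM and the first outside 1032.5 CPM, and 143 control and 240 ENZ cells lay within 10% of the limit. Keratin-high cells had a median of 1393 CPM in the control library, with a lowest cell at 772.8 and a highest at 5780 CPM, and a median of 1599 CPM in the ENZ library, from 1034 to 7657 CPM. These medians stood for 34 and 42 keratin UMIs per cell, whereas the rest of the gate had medians of 254 and 385 CPM. Dividing cells, those stopped only by the mitotic genes, had medians of 632 and 844 CPM, and 41.0% of 1235 control (38.2% to 43.8%) and 39.3% of 1199 ENZ dividing cells (36.5% to 42.1%) reached the limit of their library. A high keratin share was therefore also found in dividing cells, which the rule leaves out. None of 649 control and 397 ENZ cells of an immune comparator reached the limit, which allows a share of up to 0.462% and 0.756%. These were barcodes with at least 8000 UMIs, at least 5 Ptprc UMIs and fewer than 5 UMIs of the cancer cell genes. Gated cells without any keratin UMI were 7.35% of the control and 4.52% of the ENZ gate.

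**Figure D1:**
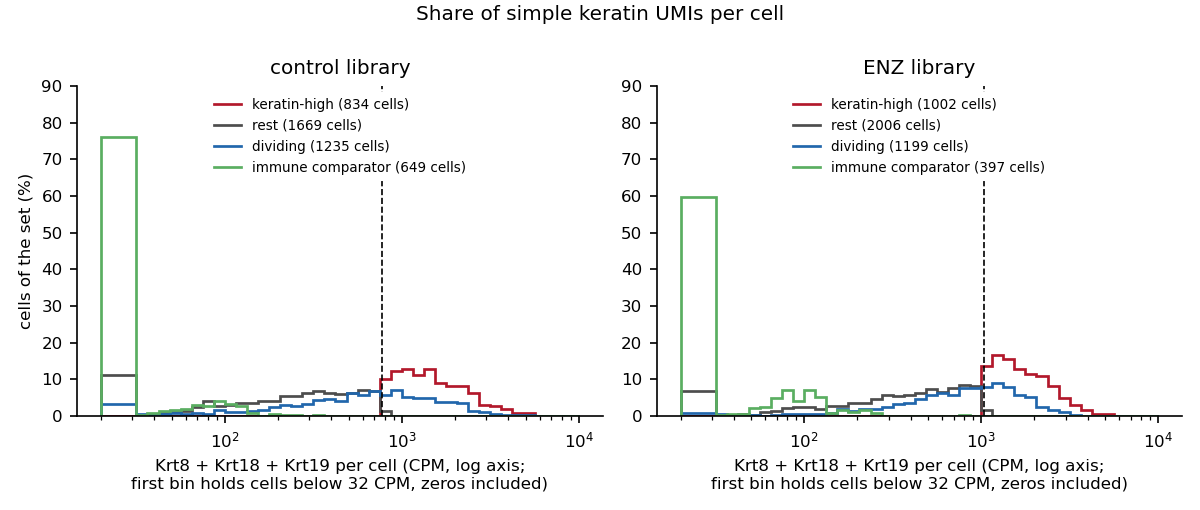
Distribution over cells of the summed Krt8, Krt18 and Krt19 level (CPM, log axis, cells below 32 CPM in the first bin) in the control library (left) and the ENZ library (right), as the percent of the cells of each set, with the limit of the library as a dashed line. Keratin-high cells continue the distribution of the rest without a gap, dividing cells reach past the limit, and most cells of the immune comparator lie in the first bin.

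All 3 keratins were higher in the cells so chosen. Krt8, the type II partner, had 812 CPM in keratin-high cells and 168 CPM in the rest of the control gate, and 918 against 258 CPM in the ENZ gate. Krt18, its usual type I partner, had 633 against 111 CPM and 590 against 154 CPM. Krt19, a type I keratin that lacks most of the tail domain, had 314 against 35.2 CPM and 378 against 61.1 CPM. Krt19 had the steepest difference, log2 3.15 (control) and 2.63 (ENZ), against 2.28 and 1.83 for Krt8 and 2.51 and 1.94 for Krt18. In keratin-high cells Krt19 therefore made up 17.8% (control) and 20.04% (ENZ) of the keratin UMIs, against 11.2% and 12.9% in the rest, while the Krt8 share was 46.2% and 48.7% against 53.4% and 54.5%. The keratin-high cells held 81.3% and 74.1% of all UMIs of the 3 keratins in their gates.

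Detection followed the same order. After each cell was thinned to 8000 UMIs, which left out no cell, a Krt8 UMI was found in 98.1% of control and 99.5% of ENZ keratin-high cells, against 63.1% and 74.0% of the rest and 9.86% and 18.1% of the immune comparator. For Krt18 the shares were 94.1% and 96.1%, against 45.5% and 55.8% of the rest and 4.47% and 7.30% of the immune comparator. For Krt19 they were 72.9% and 84.8%, against 18.3% and 27.6% of the rest and 3.08% and 7.30% of the immune comparator. The shares in the immune comparator, which had median depths of 11909 and 11224 UMIs before thinning, are the level that free RNA could give. Across all gated cells of the control library the thinned counts had Spearman's rho of 0.51 for Krt8 with Krt18, 0.46 for Krt8 with Krt19 and 0.45 for Krt18 with Krt19 (2503 cells), and across the 3008 ENZ cells 0.51, 0.51 and 0.48. Within the keratin-high cells alone, whose sum of the 3 is bounded by the rule, the values were between 0.08 and 0.19. These correlations are across cells of 1 library that share its depth, and describe the libraries.

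Of 53 keratin genes listed, 10 reached 1 CPM and 4 reached 50 CPM in keratin-high cells. The fourth was Krt76, a type II keratin of oral epithelium near Krt8 on chromosome 15 (from 101884351 to 101892920, minus strand), which was not in the rule. It had 78.2 CPM in keratin-high cells and 31.1 CPM in the rest of the control gate, and 95.2 against 37.1 CPM in the ENZ gate. Dividing cells had 96.2 and 106 CPM of Krt76, above the keratin-high cells. Krt13, a keratin of stratified mucosa, had 15.2 against 5.03 CPM and 18.0 against 7.96 CPM. Krt20, a keratin of intestinal and urothelial lining, had 8.93 against 3.55 CPM and 9.44 against 4.94 CPM, and Krt10, a keratin of the upper epidermis, was nearly level at 14.4 against 12.4 CPM and 13.7 against 11.4 CPM.

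Few other epithelial genes reached the level at which genes were compared. Cdh1, the E-cadherin gene of epithelial junctions, stood at 0.57 CPM (control) and 0.47 CPM (ENZ) in keratin-high cells, and a UMI in 0.60% and 0.50% of thinned cells against 0.66% and 0.60% of the rest. The immune comparator had 15.5 and 18.9 CPM of it, with a UMI in 9.40% and 11.3% of cells, and free RNA, the barcodes of at least 100 and fewer than 500 UMIs, held 5.39 and 6.28 CPM. Epcam, an epithelial adhesion molecule, had 3.92 CPM and 3.32 CPM, against 0.51 and 1.18 CPM in the rest, and a UMI in 2.28% and 2.30% of cells against 1.08% and 3.53% of the immune comparator. Of 34 genes of epithelial junctions 5 had at least 50 CPM, the minimum for a gene to be compared, and none of 20 epithelial transcription factors did. The junction genes compared had median log2 ratios of keratin-high cells to the rest of -0.19 (control) and -0.14 (ENZ). Klf5, an epithelial Krüppel-like factor below this minimum, had 28.8 against 13.9 CPM and 33.3 against 20.5 CPM. Of 5 markers of the normal prostate lumen, 4 had no UMI and Tgm4 gave the whole sum of 0.22 CPM in each library. Vim, the vimentin gene, was high throughout, with 2806 CPM in keratin-high cells and 1895 CPM in the rest of the control gate and 2569 against 1872 CPM in the ENZ gate, and had a UMI in every thinned keratin-high cell. Immune cells also express it, with 581 and 588 CPM and a UMI in 87.8% and 89.7% of thinned cells of the immune comparator, and free RNA held 1448 and 1652 CPM of it.

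Depth and 2 measures of the RNA moved with the keratin share. The median keratin-high cell held 24386 UMIs (control) and 25145 UMIs (ENZ), against 15695 and 17015 for the rest, and medians of 5213 and 5414 detected genes against 4355 and 4557. Malat1, a nuclear noncoding RNA, had 8705 against 12867 CPM and 10871 against 13475 CPM, and a list of 9 genes that contain or move with ribosomal RNA sequence (rRNA-like genes) took a median of 1.37% against 2.21% of a cell's UMIs (control) and 3.52% against 4.85% (ENZ). The mitochondrial share was nearly level, 3.10% against 3.08% and 3.14% against 2.89%. For this reason the counts over all genes, and those of the lists described below where they moved by over 1.5 times, are also given for cells chosen within 5 equal bins of total UMIs, where the medians were 18186 and 17902 UMIs (control) and 19670 and 19188 UMIs (ENZ), and the counts over all genes also for 5 equal bins of the Malat1 share.

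Of 3521 genes with at least 50 CPM in either arm of each library, other than those of the rule, 72 were at least 1.5-fold higher in keratin-high cells in both libraries (2.04%) and 179 at least 1.5-fold lower in both (5.08%), together 251 genes (7.13%), and 0 were 1.5-fold higher in one library and lower in the other. The control library alone gave 126 higher and 310 lower genes, and the ENZ library alone 77 and 194. Fewer genes passed when cells were chosen within the bins of total UMIs (the depth bins). The keratin contrast was smaller there too, at log2 1.97 (control) and 1.66 (ENZ) against 2.49 and 1.99, and the part of depth was not tested. Within the depth bins 18 of 3442 genes were higher and 76 lower (2.21%), 18 of the 72 and 75 of the 179 among them, and all 72 and 179 had the same direction as before. Within the Malat1 bins the counts were 55 higher, 50 of them of the 72, and 89 lower, all of the 179. The median over all genes compared was -0.05 (control) and -0.04 (ENZ) on the log2 scale. In both libraries each of the 72 was higher, and each of the 179 lower, at every step from the third of gated cells lowest in keratin through the middle ones to the keratin-high cells. These genes were called from the same cells, so this order is partly set by the choice and is no separate support. How many of all genes had such an order was not counted.

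**Figure D2:**
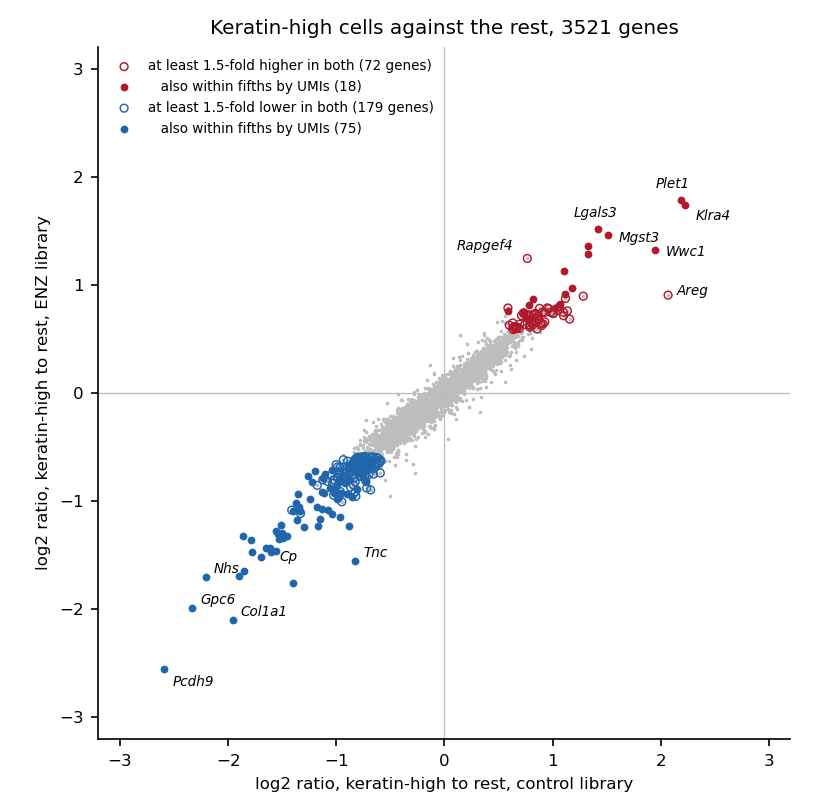
Log2 ratio of summed CPM in keratin-high cells to the rest of the gate for 3521 genes, control library on the x axis and ENZ library on the y axis. Coloured circles are the 72 genes at least 1.5-fold higher and the 179 at least 1.5-fold lower in both libraries, filled where they passed also within bins of total UMIs (18 and 75).

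The 18 genes that stayed higher within the depth bins were Mgst3, Fdps, S100a4, Klra4, Isg20, Tenm4, Klf2, Plet1, Wwc1, Card19, Lgals3, Krt76, Igfbp6, Prr13, Ezr, Tnfrsf12a, Avpi1 and Pgk1. Plet1, a surface protein of trophoblast and epithelial progenitors, had 146.5 CPM in keratin-high cells and 32.2 CPM in the rest of the control gate, 4.55 times as much (4.23 to 4.90), and 145.3 against 42.2 CPM in the ENZ gate, 3.44 times (3.25 to 3.65). Within the depth bins its log2 ratios were 1.54 and 1.254. A Plet1 UMI was found in 49.2% of control and 54.7% of ENZ keratin-high cells after thinning, against 14.7% and 19.8% of the rest and 10.0% and 10.8% of the immune comparator. Klra4, known as an activating receptor of NK cells and a member of a gene family with closely similar copies, so that its reads could be split among them, had 66.9 against 14.3 CPM and 92.3 against 27.7 CPM. The share of thinned cells with a Klra4 UMI was 32.6% and 44.0%, against 7.67% and 14.01% of the rest and 7.40% and 5.79% of the immune comparator. The 4 NK cell markers summed to 3.01 CPM in control and 1.49 CPM in ENZ keratin-high cells, against 487 and 446 CPM in the immune comparator, and the most abundant, Gzma, had 2.003 and 1.09 CPM.

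Lgals3, which encodes the sugar-binding lectin galectin-3, had 297 against 111 CPM and 312 against 109 CPM, with log2 ratios of 1.32 and 1.33 within the depth bins, against 1.42 and 1.51 without them. Immune cells also express it, at 1054 and 642 CPM in the immune comparator. Mgst3, a microsomal glutathione transferase, had 81.1 against 28.4 CPM and 58.1 against 21.1 CPM. Wwc1, an upstream protein of the Hippo pathway, had 60.01 against 15.5 CPM and 62.9 against 25.1 CPM. These were differences of log2 0.97 or more in both libraries within the depth bins, 1.31 and 1.20 for Mgst3 and 1.51 and 0.97 for Wwc1. Tenm4, a teneurin adhesion receptor, had 67.0 against 26.7 CPM and 87.9 against 36.1 CPM. Ezr, which links actin to the membrane of microvilli, had 192 against 88.5 CPM and 267 against 142 CPM. Fdps, an enzyme of the mevalonate pathway, had 246 against 115 CPM and 154 against 70.6 CPM. Fdps was lower in the ENZ library in both sets, with log2 ratios of ENZ to control of -0.67 in keratin-high cells and -0.70 in the rest. Tnfrsf12a, the receptor of the cytokine TWEAK, had 203 against 96.7 CPM and 196 against 111 CPM, and Avpi1, a vasopressin-induced gene, had 63.0 against 27.7 CPM and 62.5 against 31.9 CPM. Igfbp6, a binding protein of insulin-like growth factors, had 81.8 against 46.2 CPM and 86.7 against 47.3 CPM. Ppa1, the cytosolic pyrophosphatase, had 103 against 47.5 CPM and 91.5 against 49.9 CPM, but log2 ratios of 0.57 and 0.47 within the depth bins, under the 1.5-fold limit.

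Areg, which encodes the EGF receptor ligand amphiregulin, differed between the libraries more than the genes above. It had 174 CPM in keratin-high cells and 41.4 CPM in the rest of the control gate, 4.19 times as much (3.93 to 4.48), and 164 against 87.5 CPM in the ENZ gate, 1.87 times (1.79 to 1.96). The libraries were close in keratin-high cells and apart in the rest, where the ENZ level was 2.11 times the control level. Within the depth bins the log2 ratios of keratin-high cells to the rest were 1.34 and 0.47, so that the ENZ value fell under the 1.5-fold limit. An Areg UMI was found in 37.1% of control and 39.0% of ENZ keratin-high cells after thinning, against 12.5% and 21.7% of the rest and 13.4% and 10.3% of the immune comparator. Rapgef4, a cAMP-activated exchange factor that stood apart in the ENZ library and was named after its values were seen, had 51.4 against 30.2 CPM and 68.6 against 28.9 CPM.

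How often these transcripts were found together was counted in thinned cells, where a cell without a UMI may still hold the transcript. Of thinned keratin-high cells with a Plet1 UMI, 39.8% (control) and 43.8% (ENZ) also had an Areg UMI, against 34.4% and 33.3% of those without. Both were found in 19.5% and 24.0% of keratin-high cells and neither in 33.3% and 30.2%. Areg was found in 41.3% and 42.0% of cells with a Lgals3 UMI against 25.8% and 29.2% without. With Klra4 the shares for Areg were 51.8% and 47.6%, against 29.9% and 32.3% without. Cdkn1a, the cell cycle inhibitor p21, was found in 78.6% and 81.3% of cells with Areg against 65.5% and 69.9% without. These values describe detection in single libraries.

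Glycolysis was the list with the highest median. Of 14 glycolytic genes compared, 6 were at least 1.5-fold higher in both libraries, against 2.04% of all genes, and 0 lower, 13 lay above a ratio of 1 in both, and the median log2 ratios were 0.68 (control) and 0.55 (ENZ) against -0.05 and -0.04 over all genes. Gapdh had 2887 against 1646 CPM and 2556 against 1613 CPM. Pgk1, the first step that yields ATP, had 556 against 273 CPM and 563 against 327 CPM, and Eno1, enolase, had 631 against 326 CPM and 695 against 403 CPM. Ldha, which makes lactate, had 910 against 503 CPM and 878 against 545 CPM, and Slc16a3, the lactate exporter, had 139 against 62.5 CPM and 142 against 88.6 CPM. Hk2, the hexokinase at the entry of the pathway, was nearly level, at 317 against 305 CPM and 223 against 249 CPM. Within the depth bins 1 of the 14 genes, Pgk1, stayed past 1.5-fold higher, as did 18 of all 3442 genes compared there. The medians of the list were then 0.50 and 0.46, and 13 genes again lay above 1 in both libraries. Oxidative phosphorylation genes lay higher by less, with medians of 0.32 and 0.28 and 31 of 32 above 1 in both libraries. Only 1, Cycs (cytochrome c), was past 1.5-fold, or 3.1%, near the 2.04% of all genes. Within the depth bins 0 were past 1.5-fold, where 18 of all 3442 genes were higher and 76 lower, and the medians were 0.26 and 0.21.

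Calcium-binding and sugar-binding proteins of the annexin, S100 and galectin families had 4 of the 18 compared genes of the list higher, against 2.04% of all genes, and 0 lower, with medians of 0.32 in both libraries. Lgals7, a galectin of stratified epithelium that is not in the list and was named after its values were seen, was higher as well, with log2 ratios of 0.98 and 0.75. S100a6 had 6474 against 3821 CPM and 6881 against 4171 CPM, S100a10 had 1695 against 922 CPM and 1427 against 829 CPM, and S100a4, a gene often used as a mesenchymal marker, had 729 against 439 CPM and 455 against 271 CPM. Within the depth bins, where 18 of all 3442 genes compared were higher, 2 of the 4, S100a4 and Lgals3, stayed past 1.5-fold. Of 27 actin cytoskeleton genes 2 were higher, Actg1 (cytoplasmic actin) and Ezr, against 2.04% of all genes. Their list had medians of 0.20 and 0.16, and within the depth bins 1 gene, Ezr, was higher, against the 18 of 3442 above. Of 13 hypoxia genes 2 were higher, the mitochondrial genes Bnip3 and Higd1a, against 2.04% of all genes. The medians were 0.24 and 0.17, and within the depth bins 0 of 12 genes were higher. Of 11 genes of the ATF4 and ER stress responses 2 were higher, against 2.04% of all genes, the serine synthesis enzymes Psat1 and Phgdh. Psat1 had 65.9 against 27.1 CPM and 69.4 against 37.3 CPM, and Phgdh had 259 against 136 CPM and 217 against 129 CPM. Neither of them stayed past 1.5-fold within the depth bins. A list for wounded and fetal-like epithelium had 1 of 14 genes higher (Areg) and 1 lower, against 2.04% and 5.08% of all genes. The lower one, the secreted chaperone Clu, had 122 against 235 CPM and 99.9 against 201 CPM. Neither gene stayed past 1.5-fold within the depth bins.

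Genes of cell cycle exit were uneven. The gate allows some mitotic UMIs, and 1886 of its 2503 control and 2373 of its 3008 ENZ cells had fewer than 3 of them. Cdkn1a had 368 against 171.2 CPM in the control and 331 against 202 CPM in the ENZ gate, log2 ratios of 1.10 and 0.71, and 0.65 and 0.44 within the depth bins. Of 7 genes of cell cycle exit and p53 compared it was the only one higher, against 2.04% of all genes, and 2 were lower, against 5.08%. Within the depth bins 0 were higher and 1 lower, where 18 of all 3442 genes were higher and 76 lower. Of 5 G1/S genes and 2 G2/M genes outside the rule with at least 50 CPM, 0 were past 1.5-fold in either direction. The share of all genes was 7.13%, from which 0 of so few genes cannot be told apart. The median log2 ratios were 0.29 and 0.18 for G1/S and 0.42 and 0.06 for G2/M. Within the depth bins the medians were -0.01 and -0.05 for 4 G1/S genes and 0.19 and 0.01 for the 2 G2/M genes. Of 9 cytokine and chemokine genes 1 was higher and 1 lower, against 2.04% and 5.08% of all genes. Mif, a macrophage migration factor, was the higher one, at 1145 against 571 CPM and 1094 against 657 CPM. Vegfc, a lymphatic growth factor, was the lower one, and it alone stayed past 1.5-fold within the depth bins. Csf2, which encodes GM-CSF, was below the minimum level but had 24.3 against 1.52 CPM and 13.1 against 2.42 CPM, with a UMI in 6.95% and 5.69% of thinned keratin-high cells, 0.66% and 1.05% of the rest and 0.46% and 1.51% of the immune comparator. Of 80 ribosomal protein genes, 13 mitochondrial genes and 13 MHC class I genes compared, 0 were past 1.5-fold, against 7.13% of all genes. For the lists of 13 genes a count of 0 cannot be told apart from that share.

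**Figure D3:**
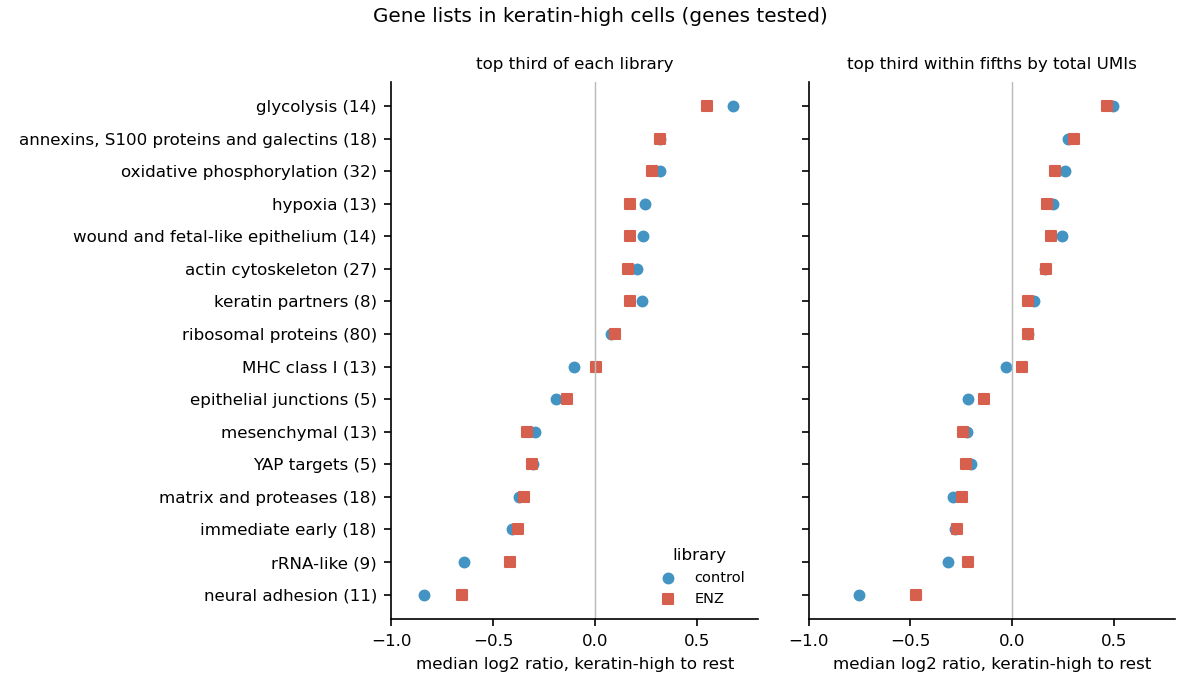
Median log2 ratio of keratin-high cells to the rest for 16 gene lists in the control library (circles) and the ENZ library (squares), with the number of genes compared in brackets, for cells chosen over the whole gate (left) and within bins of total UMIs (right). Glycolysis is highest, with medians of 0.68 and 0.55 on the left, and neural adhesion lowest, with -0.84 and -0.65.

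The 10 lowest genes have varied known roles. Pcdh9, a protocadherin of neural tissue, had 69.1 CPM in keratin-high cells and 418 CPM in the rest of the control gate, and 50.03 against 294 CPM in the ENZ gate, ratios of 0.166 and 0.170. It kept log2 ratios of -1.70 and -1.61 within the depth bins, and a UMI was found in 26.6% and 22.6% of thinned keratin-high cells against 64.1% and 56.6% of the rest. Gpc6, a heparan sulfate glypican, had 38.9 against 197 CPM and 43.2 against 170.97 CPM. Adgrl3, an adhesion receptor of the latrophilin family, had 127 against 472 CPM and 124 against 401 CPM, and Nhs, a regulator of actin, 21.6 against 99.8 CPM and 29.5 against 96.1 CPM. In dividing cells Pcdh9 stood at 69.0 and 44.2 CPM and Gpc6 at 76.5 and 67.3 CPM, nearer to the keratin-high cells than to the rest. Cp, the copper ferroxidase ceruloplasmin, had 42.1 against 128 CPM and 66.0 against 183 CPM, and Tshz2, a zinc finger factor, 99.2 against 341 CPM and 126 against 350 CPM. The other genes of the 10 lowest were Cttnbp2, Lhfp, Zfpm2 and the fibroblast marker Col1a1.

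A list named neural adhesion also holds the homeobox factors Meis1 and Meis2. Of its 11 compared genes 6 were lower, against 5.08% of all genes, among them Pcdh9, Meis1, Meis2, Dlg2 and Sema3a. Tenm4 was the 1 higher gene, against 2.04% of all genes, and the medians were -0.84 and -0.65. Within the depth bins 5 stayed lower, against 2.21% of the 3442 genes compared there. Meis2, a homeobox factor, had 124 against 292 CPM and 123.5 against 244 CPM. Matrix and protease genes had 5 of 18 lower (Col4a1, Fn1, Tnc, Thbs1 and Mmp9), against 5.08% of all genes, and 0 higher, with medians of -0.37 and -0.35. Of these, 2 stayed lower within the depth bins (Fn1 and Tnc), against 2.21% of all genes there. Without cells with stromal UMIs, as defined below, 3 did (Fn1, Tnc and Mmp9). Within the Malat1 bins 1 did, Fn1, against 2.58% of all genes there. Of 13 mesenchymal genes 4 were lower (Fn1, Zeb2, Sparc and Col5a1) and 1, S100a4, higher, against 5.08% and 2.04% of all genes. Within the depth bins 2 were lower (Fn1 and Col5a1), against 2.21%, and without cells with stromal UMIs 2 (Fn1 and Zeb2). The summed fibroblast markers were lower in the same cells, at 416 against 1049 CPM and 410 against 894 CPM, and their part in these counts was not tested beyond leaving out those cells. Fn1, fibronectin, had 253 against 571 CPM and 247 against 582 CPM, and Sparc, a matrix glycoprotein, 647 against 999 CPM and 562 against 887 CPM. Zeb2, a repressor of E-cadherin, had 165 against 300 CPM and 205 against 336 CPM, whereas its relative Zeb1 had 234 against 283 CPM and 287 against 326 CPM and was not past the limit. Vimentin thus lay on the other side of 1 from most of the genes commonly listed with it.

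Immediate early genes, which signals and tissue dissociation switch on within minutes, had 3 of 18 genes lower and 2 higher, against 5.08% and 2.04% of all genes, with medians of -0.41 and -0.38. The lower ones were the AP-1 subunits Fos, Fosb and Jun. Fos had 745 against 1455 CPM and 370 against 821 CPM, and Jun 853 against 1493 CPM and 533 against 891 CPM. Their partner Fosl1 went the other way, at 105 against 55.1 CPM and 103 against 65.1 CPM, with log2 ratios of 0.60 and 0.43 within the depth bins, and Klf2, the other higher gene, had 54.3 against 36.0 CPM and 62.6 against 37.1 CPM. Fos and Jun stayed past 1.5-fold lower and Klf2 higher within the depth bins, and Fosb and Fosl1 did not. Of all 3442 genes compared there, 76 were lower and 18 higher.

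**Figure D4:**
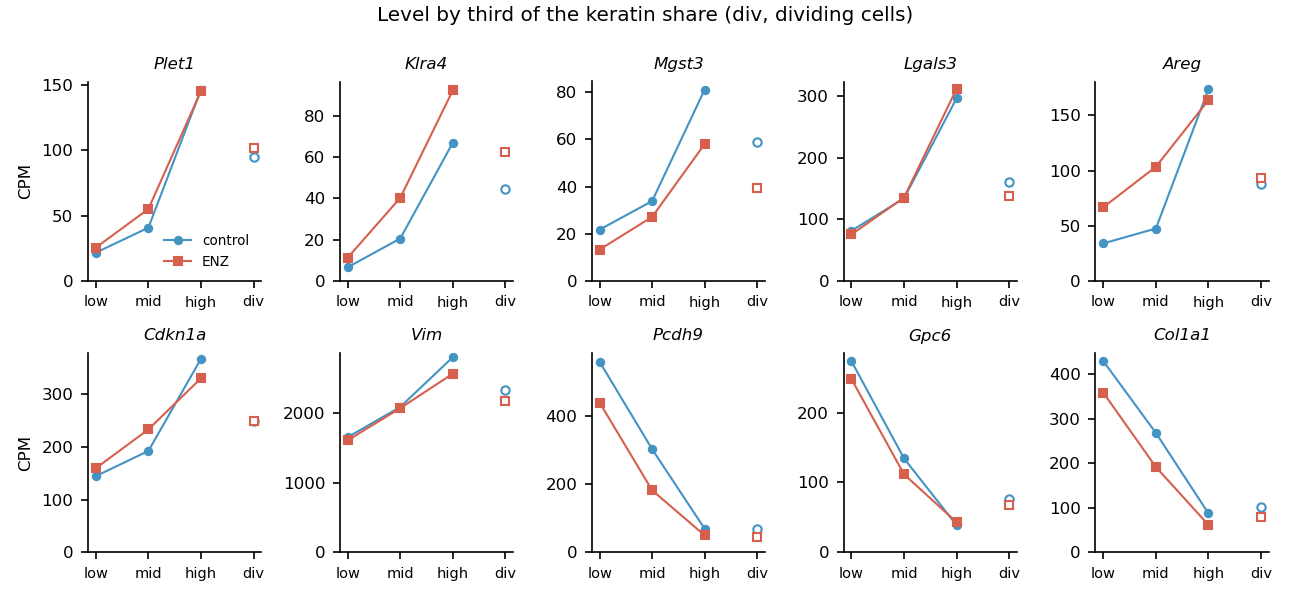
Level (CPM of summed UMIs, linear axis from 0) of 10 genes in the gated cells lowest, middle and highest in keratin share (low, mid, high) and in dividing cells (div, open symbols), control in circles and ENZ in squares. Plet1, Klra4, Mgst3, Lgals3, Areg, Cdkn1a and Vim rise and Pcdh9, Gpc6 and Col1a1 fall along the order in both libraries, and Areg differs between the libraries in the lower 2 sets.

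Gene length moved with the difference. Genes spanning under 10 kb had median log2 ratios of 0.22 and 0.19 (833 genes, 30 higher and 13 lower), genes of 10 to 50 kb 0.09 and 0.05 (1279 genes), genes of 50 to 200 kb -0.30 and -0.24 (1111 genes) and genes of 200 kb or more -0.51 and -0.39 (298 genes, 3 higher and 74 lower). Of the longest genes 24.8% were thus lower, against 5.08% of all genes, and Pcdh9, Gpc6 and Adgrl3 belong to long genes. Within the depth bins the medians were 0.16 and 0.14 for the shortest and -0.44 and -0.31 for the longest class, with 13.01% of the latter lower, against 2.21% of the 3442 genes compared there. The part of gene length, depth and nuclear RNA in the differences was not tested.

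Some markers of other cell types moved with the contrast. Of the 7 fibroblast markers, whose sums are given above, the rule used 3. The most abundant, Col3a1, had 291 and 313 CPM in keratin-high cells, and Col1a1, among the 10 lowest genes, had 87.6 against 341 CPM and 61.8 against 264 CPM. Without cells with stromal UMIs the log2 ratios of Col1a1 were -1.98 and -2.09, against -1.96 and -2.10 with them. Mural cell markers summed to 23.6 against 111 CPM and 19.4 against 104 CPM, led by Rgs5, and endothelial markers to 31.4 against 54.3 CPM and 31.8 against 46.0 CPM, led by Cdh5. Without gated cells that had at least 5 UMIs of 7 stromal genes, a choice made after the data were seen, 64 genes were higher and 156 lower, 59 and 153 of them among the 72 and 179. Macrophage markers summed to 92.9 against 128 CPM and 49.3 against 57.7 CPM, with Lyz2 at 44.7 and 18.7 CPM in keratin-high cells, against 7681 and 4824 CPM for the list in the immune comparator. Neutrophil markers summed to 100.3 against 46.4 CPM in the control and 27.4 against 29.2 CPM in the ENZ gate, led by S100a9, and to 1207 and 614 CPM in free RNA. A few cells carried much of this, since 10 of the 834 control cells held 59.6% of the S100a9 UMIs. Without cells with leukocyte UMIs, as defined below, the control log2 ratio of S100a9 was -0.32, against 1.06 with them. S100a9 is among the genes that define those cells, so this choice lowers its level by construction. T cell, B cell and dendritic cell markers each summed to under 4 CPM in keratin-high cells of both libraries, at most 3.66 CPM. Urothelial markers summed to 0.87 CPM in each library and red cell markers to 6.05 and 1.57 CPM.

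The second comparison set the keratin-high cells of the ENZ library against those of the control library. Their summed keratin level was 1759 CPM without and 1885 CPM with ENZ, a log2 difference of 0.10 (0.08 to 0.12). The log2 ratio of ENZ to control was 0.18 for Krt8, -0.10 for Krt18 and 0.27 for Krt19. In the rest of the gate the keratins were higher in the ENZ library by more, by log2 0.63, 0.48 and 0.80, and the limit of the keratin-high set lay higher too, as given above. With 1 limit set over both gates together, 706 of 2503 control and 1131 of 3008 ENZ cells were above it, and the keratin level of these cells then differed by log2 -0.08. The position of the limit thus decided the sign of the small keratin difference among keratin-high cells, while the ENZ gate held more keratin transcripts as a whole. Free RNA did so too. It held 291 (control) and 409 CPM (ENZ) of Krt8, 173 and 222 CPM of Krt18 and 95.2 and 152 CPM of Krt19. These levels lay above those of the rest of the gate in both libraries. The part of free RNA in the difference between the gates was not tested.

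Of 3497 genes with at least 50 CPM in keratin-high cells of either library, 15 were at least 1.5-fold higher in the ENZ library (0.429%) and 40 at least 1.5-fold lower (1.14%), and 13 of the 15 and 25 of the 40 passed the same limits in the rest of the gate. The median log2 ratio over all genes was 0.05 in keratin-high cells and 0.04 in the rest. The highest were rRNA-like genes. Gm42418, a noncoding gene that overlaps a ribosomal RNA repeat, went from 9446 CPM in control to 26979 CPM in ENZ keratin-high cells, a ratio of 2.86 (2.37 in the rest). Lars2, mitochondrial leucyl-tRNA synthetase, had 336 and 943 CPM, and Cmss1 had 753 and 2023 CPM. Gphn, the synaptic scaffold gephyrin, had 447 and 1132 CPM, Cdk8, a kinase of the Mediator complex, had 176 and 322 CPM, and the noncoding Gm19951 had 85.5 and 378 CPM. The list of rRNA-like genes had 6 of 9 higher and a median of 1.34 (1.09 in the rest), and summed to 13489 CPM in control and 34824 CPM in ENZ keratin-high cells, and to 133863 and 118274 CPM in the free RNA of these libraries. Camk1d, the kinase gene the study is about, had 605 and 1502 CPM in keratin-high cells, a ratio of 2.48 (2.13 in the rest), and stood among these genes in rank. Its level was lower in keratin-high cells than in the rest of both gates, which had 877 and 1865 CPM, and it was 512 and 1275 CPM in dividing cells and 1149 and 2886 CPM in the immune comparator. Free RNA held 6938 and 5587 CPM of it. The part of the rRNA-like signal in these values was not tested. Cd44, the hyaluronan receptor, had 410 and 475 CPM, a log2 ratio of 0.21 (0.39 in the rest).

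Hist1h2ap, a replication histone, had 54.3 and 100.1 CPM, Flt1, a VEGF receptor, 43.6 and 70.1 CPM, and Col5a3, a chain of collagen V, 83.5 and 131 CPM. All of these were at least 1.5-fold higher in the rest as well, with larger ratios there: log2 1.12 against 0.88 for Hist1h2ap, 1.15 against 0.69 for Flt1 and 1.04 against 0.65 for Col5a3.

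The lower genes held many of the immediate early response. Of 18 such genes 8 were lower in ENZ keratin-high cells (Fos, Jun, Ier2, Ier3, Ier5, Dusp1, Zfp36 and Btg2), against 1.14% of all genes, and 0 higher, with a median of -0.45, against -0.47 in the rest. Fos had 745 CPM without and 370 CPM with ENZ. Dusp1, a MAP kinase phosphatase, had 371 and 164 CPM, and its ratio of 0.441 lay below the 0.603 of the rest. Of 15 heat shock genes 3 were lower, against the same 1.14%, the near-identical HSP70 genes Hspa1a and Hspa1b, whose reads could be split, and the co-chaperone Dnajb1. Hspa1a had 142 and 76.7 CPM and Dnajb1 134 and 87.6 CPM. The stress genes Gadd45g (144 and 57.0 CPM), a growth arrest protein, and Socs3 (154 and 79.6 CPM), an inhibitor of JAK and STAT signalling, lay lower as well, and so did Hilpda, a lipid droplet protein of hypoxic cells, at 189 and 85.0 CPM.

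Other low genes are known from leukocytes or from interferon responses. S100a9, a neutrophil protein, had 58.0 and 15.9 CPM, but the 10 control cells named above had up to 246 of its UMIs in a cell, and 10 ENZ cells held 39.7% of them. Without cells with leukocyte UMIs, a choice that uses S100a9 itself, its log2 ratio of ENZ to control was -0.78, against -1.87 with them. Cd74, the MHC class II invariant chain, had 79.6 and 29.9 CPM, and the immune comparator had 5779 and 3191 CPM of it. Of its UMIs in keratin-high cells, 10 control cells held 39.96%, with up to 117 in a cell, and 10 ENZ cells held 30.2%. The interferon gene Ifi27l2a had 51.4 and 20.8 CPM. The cells with leukocyte UMIs were gated cells with at least 5 UMIs of S100a8, S100a9, Lyz2, Cd74 and C1qa together, a choice made after the data were seen. Without them 18 genes were higher and 38 lower in the ENZ library, 13 and 33 of them as before. Among the 10 lowest were also the noncoding Gm17056, with 138 and 53.9 CPM, and Tnc, the matrix protein tenascin-C, with 56.1 and 28.2 CPM. Of 8 interferon genes 2 were lower, and of 17 matrix and protease genes 2, against 1.14% of all genes.

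**Figure D5:**
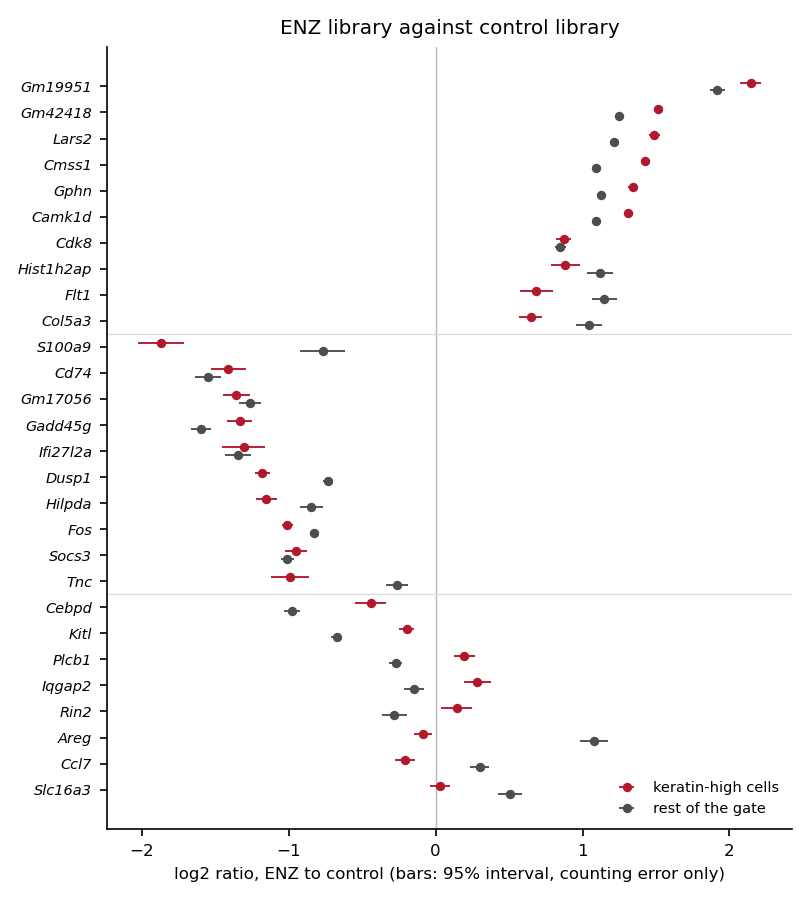
Log2 ratio of the ENZ to the control library for named genes in keratin-high cells (red) and in the rest of the gate (grey), with 95% intervals for counting error only. The upper groups are the 10 highest and the 10 lowest genes in keratin-high cells and the lowest group are genes whose ratio differed most between keratin-high cells and the rest, where Areg lies at -0.08 in keratin-high cells and 1.08 in the rest.

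The difference between the libraries was in most genes alike in keratin-high cells and in the rest. Of 3286 genes that reached 50 CPM in 1 or both libraries, in keratin-high cells as well as in the rest, 0 had a ratio of ENZ to control that was 1.5-fold larger in keratin-high cells and 2 had one that was 1.5-fold smaller (0.0609%), Areg and Tnc. Areg had a ratio of 0.943 in keratin-high cells and 2.11 in the rest, and within the depth bins log2 ratios of -0.16 and 0.71. Tnc had log2 ratios of -0.99 and -0.26, but -0.43 in both within the depth bins, and -0.88 and -0.21 within the Malat1 bins. S100a9 and Wwc1, below 50 CPM in the rest of both libraries, were not among these genes, with log2 ratios of -1.87 and -0.77 for S100a9 and 0.07 and 0.69 for Wwc1. After Areg and Tnc, the genes compared with the next smaller ratios were Ccl7, a monocyte chemokine, with 140 and 121 CPM in keratin-high cells and 112 and 137 CPM in the rest, and Slc16a3, with 139 and 142 CPM against 62.5 and 88.6 CPM. On the other side, the ratio was larger in keratin-high cells for Cebpd, an acute phase transcription factor, with 65.5 and 48.2 CPM against 238 and 121 CPM, and for Kitl, the ligand of the KIT receptor, with 246 and 214 CPM against 407 and 255 CPM. Plcb1, Iqgap2 and Rin2 followed, each higher in the ENZ library in keratin-high cells and lower in the rest, by log2 0.20 and -0.27 for Plcb1.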

How the data were processed

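Droplet-based scRNA-seq was measured in 1 control and 1 ENZ library. The deposited values were raw UMI counts, neither filtered nor normalized by the authors, for 32285 genes and 2438568 and 2239744 listed barcodes. The file headers name Cell Ranger 7.2.0, whereas the submitters' processing notes name Cell Ranger 2.1.1 and mm10. How intronic reads were counted is not given in the sources used here.

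UMIs were summed over the cells of a set and divided by its total (CPM), with exact Poisson intervals for levels, exact conditional binomial intervals for ratios and Clopper-Pearson intervals for shares, all at 95%. Intervals and the limit of 3 counts behind a count of 0 cover counting error only. Genes with at least 50 CPM were compared, and past 1.5-fold is a size, not a test. No p-value is given with 1 library per condition, and cells are not replicates. Doublets were not called. Leaving out the 5% of cells with the most UMIs was an alternative. For keratin-high cells against the rest, the 15 highest and 10 lowest genes were named, ranked by the library with the smaller difference. For ENZ against control, the 10 highest and 10 lowest by the bound nearer to 1 and the 5 highest and 5 lowest by the difference from the rest were named, as were genes of 45 lists. Some genes of this rule are not reported here. Members, lists and genes were chosen with earlier results of these data known. Other alternatives were the limits of the gate, the choice and number of cells, the scaling, subtraction of free RNA, the minimum level and the fold. The counting of sets and intervals was tested on simulated data. Python 3.11.15, numpy 2.4.6, scipy 1.17.1, pandas 2.3.3 and matplotlib 3.10.9 were used, with gene positions from GENCODE M21. Other columns of values in the files numbered 0.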

Additional observations from a re-analysis of the deposited data

How the results depend on the processing

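No paired analysis was possible because only 1 library per group exists. The log2 keratin ratio of keratin-high cells to the rest (2.49 control, 1.99 ENZ) was 2.36 and 1.89 with at least 12000 UMIs, 2.25 and 1.85 for the fifth of cells highest in keratin (500 and 601 cells), 3.95 and 3.33 against the third lowest in keratin, 2.39 and 2.07 with 1 limit for both libraries, 2.29 and 1.82 ranked by Krt8 alone, 1.97 and 1.66 within bins of total UMIs, 2.24 and 1.87 within Malat1 bins, 2.30 and 1.80 with separate UMIs to choose and to measure, 2.64 and 2.11 with fewer than 3 mitotic UMIs, and 2.40 and 1.92 without cells with stromal UMIs, an alternative chosen after seeing the data, as was that without cells with leukocyte UMIs. For the control it was 2.52 with at least 5000 UMIs, 2.45 with no Ptprc UMI and 2.41 without the 5% of cells with the most UMIs, and for the ENZ library 2.097 from each cell's mean CPM, 2.09 after thinning and 2.02 with median-of-ratios scaling. The log2 ratio of ENZ to control keratin (0.1001) was 0.0795 with at least 12000 UMIs, 0.0799 within bins of total UMIs, 0.0771 with separate UMIs, 0.0730 for the fifth of cells, 0.16 with fewer mitotic UMIs and from the mean CPM, 0.19 without the deepest cells, 0.17 after thinning, 0.0475 with median-of-ratios scaling, 0.22 without leukocyte UMIs and -0.0780 with 1 limit. The 72 higher and 179 lower genes became 242 and 410 against the third lowest in keratin, 18 and 76 within bins of total UMIs, 188 and 436 at 10 CPM, 851 and 1950 with no minimum, 8 and 36 at 2-fold and 392 and 650 at the lower fold limit, and 89 were lower within Malat1 bins. The 15 and 40 genes between libraries became 48 and 109 at 10 CPM, 1776 and 2388 with no minimum, 6 and 8 at 2-fold and 217 and 158 at the lower fold limit, and 25 were higher after thinning. Genes whose ratio was smaller in keratin-high cells (2) numbered 1 for the fifth of cells, 1 limit, Krt8 alone, bins of total UMIs and without stromal UMIs, 5 after thinning and 6 against the third lowest in keratin and with fewer mitotic UMIs, and those with a larger ratio (0) numbered 1 with fewer mitotic UMIs and with no Ptprc UMI. The control S100a9 ratio reversed from log2 1.06 to -0.32 without leukocyte UMIs, a setting that leaves out cells by S100a9 itself. The causes were not tested, except that a smaller or larger minimum, fold or comparison set changes a count by construction. Of 6300 values of 105 named genes under these settings, 4329 moved by less than their interval, 1970 by more, and 1 reversed. Reversed was counted only for ratios of at least 1.5-fold in either direction. A change of sign in a smaller ratio was counted with the others. Genes of few UMIs, and any difference between mice, are beyond what 1 library per condition can show.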
